A study of Mus musculus with 12 samples.

Results

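The lysyl hydroxylases and the lysyl oxidases prepare and form the crosslinks of collagen, and the oxidases also crosslink elastin. The 8 genes described here are the complete mouse families, Lox, Loxl1, Loxl2, Loxl3 and Loxl4 for the oxidases and Plod1, Plod2 and Plod3 for the hydroxylases. They were chosen by gene name from the 35602 genes of the count table, and all 8 were among the 15708 genes with enough counts to be tested. The families were proposed for study with results from these same libraries in view, so the adjusted p-values given below describe these libraries and are not independent evidence about the families.

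The RNA came from cultured mouse embryonic fibroblasts (MEFs), the connective tissue cells that grow out of embryo tissue in serum. The 12 libraries fall into 4 groups of 3 libraries each: Ezh2a mutant, the wild type of its own litters, Ezh2b mutant, and the wild type of its own litters. Ezh2 encodes the catalytic subunit of Polycomb repressive complex 2, a histone methyltransferase that keeps genes silent, and the study concerns isoforms of EZH2 that arise from cryptic splice sites. The labels name the mutations Ezh2a and Ezh2b and do not describe the alleles. They also do not say whether the libraries of a group came from separate embryos or cultures, so the p-values measure the spread between these libraries, which may be technical.

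Collagen is modified in steps. Inside the endoplasmic reticulum the lysyl hydroxylases hydroxylate chosen lysines of the growing chain: Plod1 acts on lysines of the triple helix, Plod2 on lysines of the short telopeptides at the chain ends, and Plod3 also adds glucose to hydroxylysines that carry galactose. Outside the cell the lysyl oxidases, copper-dependent amine oxidases, convert lysine and hydroxylysine side chains into reactive aldehydes that join neighbouring chains. Telopeptide hydroxylation by Plod2 steers these joins towards the pyridinoline crosslinks typical of bone, cartilage and scarred tissue. Lox is the main enzyme for fibrillar collagen, Loxl1 is known for elastic fibres, and Loxl2, Loxl3 and Loxl4 carry scavenger receptor domains, with Loxl2 also known for crosslinking the network collagen of basement membranes. Lox, Loxl2 and Plod2 are known targets of hypoxia-inducible factors.

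Promoter sequences of 3 of the 8 genes, Loxl4, Plod1 and Plod3, were taken from the RefSeq table for GRCm38.p6. The promoters of the other members were left out, among them those of the hypoxia targets Lox, Loxl2 and Plod2. The 3 therefore stand neither for both families nor for those targets. The CpG content and hypoxia motifs of the 3 can be set beside the levels below. Loxl4 differed between groups in more comparisons than Plod1, and Plod3 in none. Each runs 5′ to 3′ on the strand of the gene, from 250 bases before the start to 50 bases after it. Capitals mark the core of the hypoxia response element, searched as ACGTG or GCGTG on both strands, so that a match on the other strand reads CACGT or CACGC.
Loxl4 (chr19:42612757-42613056, minus strand): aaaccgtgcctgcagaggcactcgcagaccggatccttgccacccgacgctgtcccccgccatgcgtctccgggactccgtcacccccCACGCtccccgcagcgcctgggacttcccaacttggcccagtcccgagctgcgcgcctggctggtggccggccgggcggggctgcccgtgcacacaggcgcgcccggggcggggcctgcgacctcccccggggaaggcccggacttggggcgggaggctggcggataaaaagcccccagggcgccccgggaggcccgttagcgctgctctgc
Plod1 (chr4:147936727-147937026, minus strand): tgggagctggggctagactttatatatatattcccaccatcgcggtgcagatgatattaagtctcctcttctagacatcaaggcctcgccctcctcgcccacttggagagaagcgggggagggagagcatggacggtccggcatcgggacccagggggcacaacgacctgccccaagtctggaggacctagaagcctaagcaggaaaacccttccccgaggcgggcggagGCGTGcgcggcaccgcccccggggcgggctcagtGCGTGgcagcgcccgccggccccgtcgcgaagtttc
Plod3 (chr5:136986769-136987068, plus strand): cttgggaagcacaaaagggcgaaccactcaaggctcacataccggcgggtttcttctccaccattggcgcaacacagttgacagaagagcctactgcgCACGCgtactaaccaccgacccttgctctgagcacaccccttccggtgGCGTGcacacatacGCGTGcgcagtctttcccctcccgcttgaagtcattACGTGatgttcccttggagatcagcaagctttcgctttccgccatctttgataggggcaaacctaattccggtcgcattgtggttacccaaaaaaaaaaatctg

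The Loxl4 window held 1 match, the Plod1 window 2 and the Plod3 window 4. Among 32851 promoters of the same length, 43.8% held at least 1 match, 20.6% at least 2 and 3.86% at least 4. The matches of Plod3 stand in a gene whose level did not pass the test in any comparison, and whether they act was not tested. All 3 windows were rich in CpG, the promoter type at which Polycomb complexes are usually found in mammals. Loxl4 held 32 CpG dinucleotides, Plod1 25 and Plod3 19, against a median of 7 over all promoters. At least as many as in Loxl4 were held by 9.52% of promoters, as in Plod1 by 18.4% and as in Plod3 by 28.1%. A match or a CpG count is a property of the sequence and shows no binding.

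Levels are given as CPM, the count of a gene set against the library's total after TMM scaling, which corrects that total for differences in composition. The quasi-likelihood test of edgeR, fitted to all 12 libraries, was used for differences, with Benjamini-Hochberg adjustment over the 15708 genes. Rose and fell are used where the adjusted p was under 0.05. Every adjusted p below comes from that test unless DESeq2 is named. Total counts ran from 28811482 to 54070380 per library. Ezh2b wild-type replicate 3, the deepest library, stands apart from the others of its group: its mean chi-square per gene against them was 12 and 13.1, while the other pairs of a group lay between 2.72 and 4.89. For the 8 genes, tests that use it and passed, with it or only without it, are given without it as well. The other tests that use it did not pass without it either. The cells carry the fibroblast programme. The 12 fibroblast markers summed to 6.23 to 6.37% of counts in the Ezh2a mutant, 6.27 to 6.42% in its wild type, 6.22 to 6.36% in the Ezh2b mutant and 5.57 to 6.01% in its wild type, and none of the 12 was at 0.

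Ezh2 itself (chromosome 6, 47530139 to 47595341, GRCm38) had 14.2, 15.2 and 14.2 CPM in the Ezh2a mutant, against 30.5, 30.4 and 30.1 CPM in its wild type. It fell in the Ezh2a mutant by 1.07 on the log2 scale (SE 0.05, adjusted p = 3.38e-11). In the Ezh2b mutant it had 35.4, 33.6 and 36.4 CPM, against 33.8, 35.8 and 35.3 CPM in its wild type, a log2 difference of 0.00 (SE 0.05, adjusted p = 0.969). The counts are per gene and do not separate the isoforms.

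Per length of exon, Lox was by far the most abundant oxidase transcript in every group. It averaged 724 CPM per kb of merged exon in the Ezh2a mutant, 726 in its wild type, 760.3 in the Ezh2b mutant and 715 in its wild type. Its rank among 14491 genes by this measure was 20 to 22 over the groups. Loxl1 came next at 147 to 189 CPM per kb (range of group means), then Loxl2 at 72.2 to 145, Loxl3 at 33.6 to 59.2 and Loxl4 at 9.15 to 18.5. This order held in each of the 4 groups. In the Ezh2b mutant Loxl1 and Loxl2 came closest, at 163 ± 6.11 and 145 ± 3.17 CPM per kb (SD, n = 3), and in its wild type Loxl2 and Loxl3 did, at 72.2 ± 2.27 and 59.2 ± 5.46, each pair further apart than the spread of its libraries. Among the hydroxylases Plod3 led at 61.7 to 64.4 CPM per kb. The order of Plod1 and Plod2 behind it was not the same in all groups, and it rests on the exon lengths used. Plod2 had 29.5 ± 0.707 CPM per kb in the Ezh2a mutant, 33.4 ± 1.12 in its wild type, 22.3 ± 0.408 in the Ezh2b mutant and 16.0 ± 1.42 in its wild type. Plod1 had 26.7 ± 1.16 CPM per kb in the Ezh2a mutant, 28.6 ± 0.437 in its wild type, 20.5 ± 0.524 in the Ezh2b mutant and 21.4 ± 1.27 in its wild type.

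**Figure D1:**
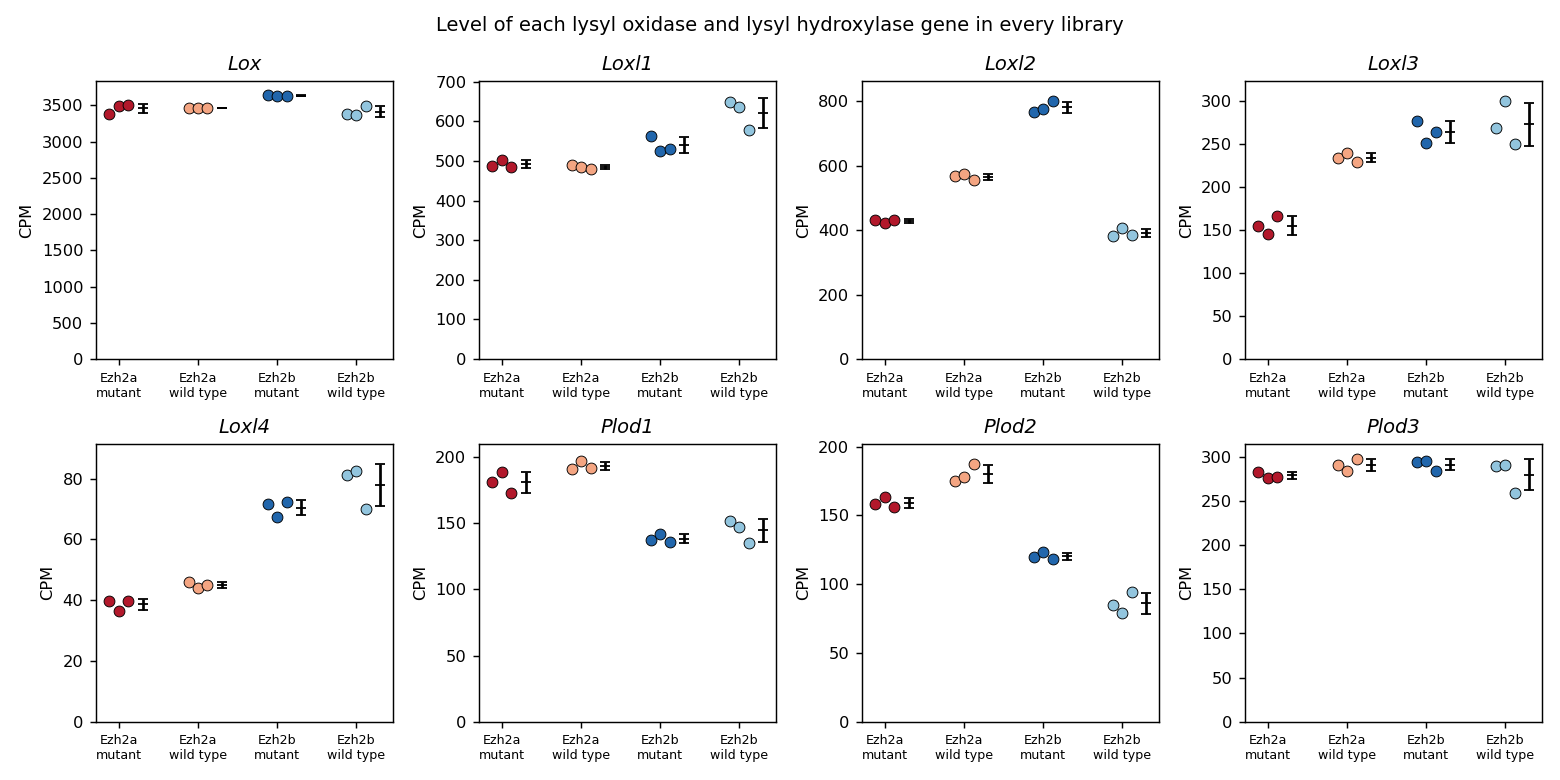
Level (CPM after TMM scaling, linear axis from 0) of each of the 8 genes in every library. Points are libraries in the order of their replicate numbers, and the bar beside them is the mean with its SD over 3 libraries. Lox and Plod3 are nearly level across the 4 groups, whereas Loxl2 is highest in the Ezh2b mutant (767 to 800.3 CPM) and Plod2 lowest in the Ezh2b wild type (79.3 to 94.4 CPM).

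The 8 genes differed widely in how much they varied. Between the highest and the lowest group mean, Lox varied by 1.06-fold and Plod3 by 1.04-fold, Loxl1 by 1.28-fold and Plod1 by 1.40-fold. Loxl3 varied by 1.76-fold, Loxl2 by 2.0-fold, Loxl4 by 2.02-fold and Plod2 by 2.09-fold. The median was 1.15-fold over the 5788 genes whose log2 CPM averaged 5 or more. Of those genes, 87.1% varied more than Lox and 94.6% more than Plod3, but 3.01% more than Loxl2, 2.92% more than Loxl4 and 2.51% more than Plod2.

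Among the 8 genes, 4 were lower in the Ezh2a mutant past the threshold and none was higher. Of all genes tested, 19.8% passed the threshold, 9.61% higher and 10.2% lower. The median log2 fold change was -0.14 over the 8 genes and -0.00 over all genes. Those that fell were the scavenger-domain oxidases Loxl2, Loxl3 and Loxl4 and the telopeptide hydroxylase Plod2. The 2 most abundant oxidases, Lox and Loxl1, were within 0.03 of 0 on the log2 scale. Markers of epithelia and mesothelium fell in the same comparison, 6 of the 8 tested. The 10 listed summed to 0.00425 to 0.00456% of counts in the Ezh2a mutant and 0.00836 to 0.00873% in its wild type, with Krt5 at 0 in both groups, and their part in the levels of the 8 genes was not tested.

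Loxl3 (chromosome 6, 83034173 to 83052562), an oxidase whose loss in mice causes cleft palate and spinal defects, fell the most among the 8. It had 154, 145 and 166 CPM in the Ezh2a mutant, against 233, 239.6 and 229 CPM in its wild type. Every mutant library lay below every wild-type library, and the log2 fold change was -0.60 (SE 0.06, adjusted p = 3.24e-07). Loxl2 (chromosome 14, 69609068 to 69695834) had 432, 420.5 and 430.1 CPM in the Ezh2a mutant, against 568, 574 and 555 CPM in its wild type. The groups again did not overlap, and the log2 fold change was -0.40 (SE 0.03, adjusted p = 3.36e-08).

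Loxl4 (chromosome 19, 42593982 to 42612813), the least abundant of the 8 in CPM, had 39.7, 36.3 and 39.7 CPM in the Ezh2a mutant, against 45.9, 43.9 and 45.0 CPM in its wild type. The log2 fold change was -0.22 (SE 0.06, adjusted p = 0.0114). Plod2 (chromosome 9, 92542223 to 92608428) had 158, 163 and 156 CPM in the Ezh2a mutant, against 175, 178 and 187 CPM in its wild type, and changed by -0.18 on the log2 scale (SE 0.05, adjusted p = 0.0113). In both genes the groups did not overlap, yet both calls were lost when certain single libraries were left out. The adjusted p of Loxl4 was 0.0859 without Ezh2a mutant replicate 2 and 0.0511 without Ezh2a wild-type replicate 1. That of Plod2 was 0.0602 without Ezh2a mutant replicate 3, 0.0662 without Ezh2a wild-type replicate 3 and 0.0693 when library totals replaced TMM.

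The other 4 genes did not pass in the Ezh2a comparison. Lox (chromosome 18, 52516067 to 52529867) had 3383, 3490.1 and 3503 CPM in the Ezh2a mutant, against 3469, 3467 and 3464 CPM in its wild type, a log2 difference of -0.00 (SE 0.03, adjusted p = 0.956). Loxl1 (chromosome 9, 58287738 to 58313186) had 488, 503 and 485 CPM in the Ezh2a mutant, against 489.7, 484 and 479 CPM in its wild type (log2 difference 0.02, SE 0.04, adjusted p = 0.761). For these oxidases the libraries of both groups overlapped. Plod1 (chromosome 4, 147909753 to 147936767) had 181, 189 and 173 CPM in the Ezh2a mutant, against 191, 197 and 192 CPM in its wild type (log2 difference -0.10, SE 0.04, adjusted p = 0.131). Plod3 (chromosome 5, 136987019 to 136996648) had 283, 276 and 277 CPM in the Ezh2a mutant, against 291, 284 and 297 CPM in its wild type (log2 difference -0.06, SE 0.04, adjusted p = 0.34). The mutant libraries of both hydroxylases lay below all of the wild-type libraries, by less than the test could call. With only the Ezh2a groups in the fit, the adjusted p of Plod1 was 0.042.

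**Figure D2:**
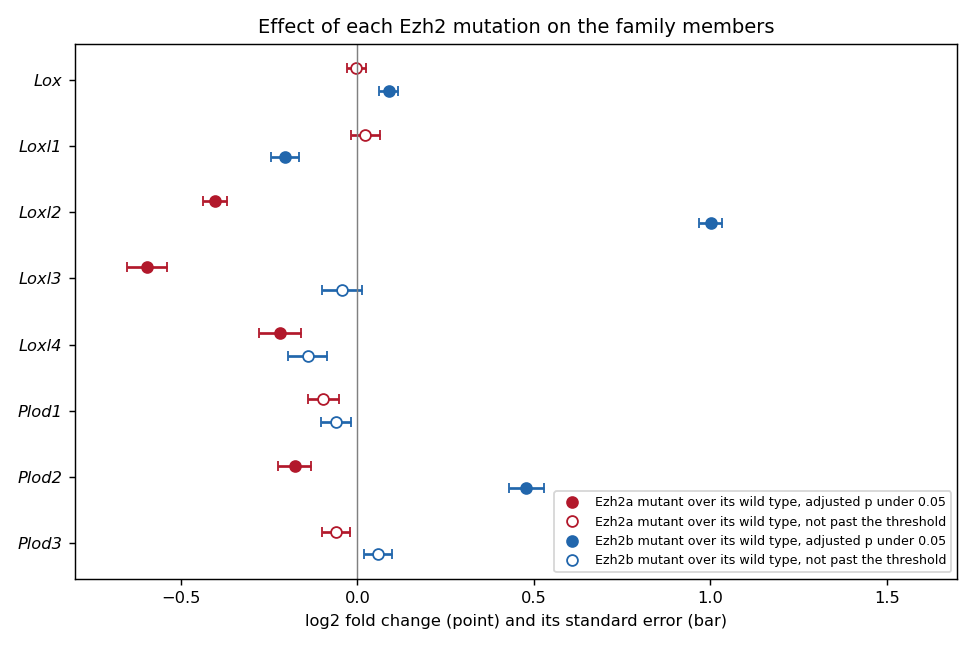
Log2 fold change (point) and its standard error (bar) of each gene in the Ezh2a mutant (red) and the Ezh2b mutant (blue), each over its own wild type; filled points passed an adjusted p of 0.05. Loxl2 lies at -0.40 in Ezh2a and 1.00 in Ezh2b, and Plod2 at -0.18 in Ezh2a and 0.48 in Ezh2b.

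In the Ezh2b mutant, 3 of the 8 genes rose and 1 fell. Of all genes tested, 26.1% passed the threshold, 14% higher and 12.1% lower. The median log2 fold change was 0.01 over the 8 genes and -0.01 over all genes. Loxl2, Plod2 and Lox rose and Loxl1 fell.

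Loxl2 had 767, 776 and 800.3 CPM in the Ezh2b mutant, against 382, 405 and 385 CPM in its wild type. The groups were far apart, and Loxl2 rose by 1.00 on the log2 scale (SE 0.03, adjusted p = 2.87e-14). Plod2 had 120, 123 and 118 CPM in the Ezh2b mutant, against 84.9, 79.3 and 94.4 CPM in its wild type. It rose 1.39-fold, or by 0.48 on the log2 scale (SE 0.05, adjusted p = 3.02e-07), with no overlap. Both rises were as large or larger without Ezh2b wild-type replicate 3, at 1.00 for Loxl2 and 0.56 for Plod2.

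Markers of other cell types moved in the same comparison. All 13 markers of macrophages, the phagocytes of tissues, rose in the Ezh2b mutant, where they summed to 0.0463 to 0.0498% of counts, against 0.0102 to 0.0113% in its wild type. Of the 8 tested markers of epithelia and mesothelium, 5 rose and 1 fell, and the 10 listed summed to 0.00381 to 0.00393% in the Ezh2b mutant and 0.00329 to 0.00381% in its wild type, where Krt5 was at 0. Of the 12 fibroblast markers 9 rose and 2 fell. In the Ezh2a groups the macrophage markers summed to 0.157 to 0.169% in the mutant and 0.166 to 0.171% in its wild type, with 2 of the 13 higher and 2 lower in the mutant, and none of the 13 was at 0 in any group. From the lowest to the highest group mean, Plod2 stands in the same order as the summed markers of macrophages, of epithelia and mesothelium, and of fibroblasts. In bulk RNA, fewer cells of a type and less RNA per cell cannot be told apart, and the part of these cells in the levels of Plod2 and the other 7 genes was not tested.

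Lox had 3639, 3628 and 3630.4 CPM in the Ezh2b mutant, against 3382, 3365 and 3496 CPM in its wild type. The mutant libraries lay above every wild-type library, but the rise was small, at 0.09 on the log2 scale (SE 0.03, adjusted p = 0.0187). It passed with DESeq2 (0.10, adjusted p = 0.00192) and in 5 of the 6 fits that leave out 1 library of these groups, among them that without Ezh2b wild-type replicate 3 (0.11, adjusted p = 5.24e-04). It did not pass without Ezh2b mutant replicate 1 (adjusted p = 0.0502), with library totals in place of TMM (0.114) or with only the Ezh2b groups in the fit (0.12). Loxl1 had 562, 525 and 529.9 CPM in the Ezh2b mutant, against 649.8, 636 and 579 CPM in its wild type. It fell without overlap, by 0.21 on the log2 scale (SE 0.04, adjusted p = 5.78e-04), and by 0.25 without Ezh2b wild-type replicate 3.

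Loxl3 had 277, 251 and 264 CPM in the Ezh2b mutant, against 268, 299.7 and 250 CPM in its wild type, and the groups overlapped (log2 difference -0.04, SE 0.06, adjusted p = 0.619). Loxl4 had 71.5, 67.5 and 72.2 CPM in the Ezh2b mutant, against 81.1, 82.4 and 69.9 CPM in its wild type (log2 difference -0.14, SE 0.05, adjusted p = 0.0638). Plod1 had 137, 142 and 136 CPM in the Ezh2b mutant, against 152, 147 and 135 CPM in its wild type (log2 difference -0.06, SE 0.04, adjusted p = 0.344). In Loxl4 and Plod1 it was Ezh2b wild-type replicate 3 that fell among the mutant libraries or below them. Without it both passed, Loxl4 at -0.21 (adjusted p = 0.00137) and Plod1 at -0.10 (adjusted p = 0.0494), which made 3 genes higher and 3 lower. Loxl4 also passed with library totals in place of TMM (adjusted p = 0.018) and with no filter on low counts (0.0232). With library totals 2 of the 8 genes were called higher and 2 lower. Plod3 had 294, 295 and 284 CPM in the Ezh2b mutant, against 289, 291 and 259 CPM in its wild type (log2 difference 0.06, SE 0.04, adjusted p = 0.329).

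The effects of the 2 mutations were compared by the difference between them, the Ezh2b effect minus the Ezh2a effect. The mutants have no wild-type libraries in common. For 4 of the 8 genes the difference passed the threshold, 3 higher and 1 lower in Ezh2b than in Ezh2a. Over all genes 26.5% passed, 14.7% higher and 11.9% lower, and the median difference was 0.11 over the 8 genes and -0.00 over all. Loxl2 had the largest difference of the 8, 1.40 on the log2 scale (SE 0.05, adjusted p = 5.84e-14), as it fell in the Ezh2a mutant and rose in the Ezh2b mutant. Plod2 likewise moved in opposite directions, with a difference of 0.66 (SE 0.07, adjusted p = 4.4e-07). The difference for Loxl3, which fell in the Ezh2a mutant and did not pass in the Ezh2b mutant, was 0.55 (SE 0.08, adjusted p = 2.61e-05). That for Loxl1 was -0.23 (SE 0.06, adjusted p = 0.00478). Without Ezh2b wild-type replicate 3 all 4 still passed, at 1.40 for Loxl2, 0.73 for Plod2, 0.49 for Loxl3 and -0.28 for Loxl1.

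For the other 4 genes the difference did not pass. It was 0.09 for Lox (SE 0.04, adjusted p = 0.085), 0.12 for Plod3 (SE 0.06, adjusted p = 0.141), 0.08 for Loxl4 (SE 0.08, adjusted p = 0.536) and 0.04 for Plod1 (SE 0.06, adjusted p = 0.732). The difference for Lox passed without Ezh2b wild-type replicate 3 (0.11, adjusted p = 0.0066) and with DESeq2 (0.10, adjusted p = 0.0263).

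The wild types also differed. In the Ezh2b wild type over the Ezh2a wild type, 3 of the 8 genes were higher and 3 lower, while 42.3% of all genes passed, 20.4% higher and 21.8% lower. The median log2 fold change was -0.04 over the 8 genes and -0.00 over all genes. This comparison uses the wild-type libraries of both mutant comparisons, so its values are not independent of those above. The groups may differ in litter, culture and handling, and these cannot be told apart. Cell type markers differed as well: all 13 macrophage markers were lower in the Ezh2b wild type (median -3.75), as were 7 of the 8 tested epithelial and mesothelial markers, with 1 higher (median -3.04), and 9 of the 12 fibroblast markers, with 2 higher (median -0.33). Their part in the levels of the 8 genes was not tested.

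Plod2 differed most between the wild types, at -1.06 on the log2 scale (SE 0.05, adjusted p = 9.5e-13). It averaged 86.2 ± 7.64 CPM in the Ezh2b wild type and 179.9 ± 6.05 CPM in the Ezh2a wild type (SD, n = 3 each). Loxl2 was also lower, at 390.5 ± 12.3 CPM in the Ezh2b wild type and 566 ± 9.69 CPM in the Ezh2a wild type (-0.53, SE 0.03, adjusted p = 6.97e-11). Plod1 was lower as well, at 145 ± 8.62 CPM in the Ezh2b wild type and 193 ± 2.95 CPM in the Ezh2a wild type (-0.42, SE 0.04, adjusted p = 1.37e-07).

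Loxl4 was the oxidase most raised in the Ezh2b wild type, with 77.8 ± 6.85 CPM there and 44.9 ± 1.02 CPM in the Ezh2a wild type (0.79, SE 0.06, adjusted p = 7.11e-10). Loxl1 averaged 622 ± 37.4 CPM in the Ezh2b wild type and 484 ± 5.58 CPM in the Ezh2a wild type (0.36, SE 0.04, adjusted p = 4.53e-07). Loxl3 averaged 273 ± 25.1 CPM in the Ezh2b wild type and 234 ± 5.28 CPM in the Ezh2a wild type (0.22, SE 0.06, adjusted p = 0.00379). Lox (-0.02, SE 0.03, adjusted p = 0.555) and Plod3 (-0.06, SE 0.04, adjusted p = 0.282) did not pass. Without Ezh2b wild-type replicate 3 the same 6 genes passed, at -1.13 for Plod2, -0.52 for Loxl2, -0.37 for Plod1, 0.87 for Loxl4, 0.41 for Loxl1 and 0.28 for Loxl3. Since the wild types differ in Plod2 by more than either mutant differs from its own wild type, levels set across the Ezh2a and Ezh2b groups carry that difference. The Ezh2b mutant, in which Plod2 rose, still had less Plod2 than either Ezh2a group.

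The makeup of the oxidase family, per length of exon, differed between the groups. Loxl2 made up 7.95 ± 0.202% of the summed oxidase level in the Ezh2a mutant, 10.1 ± 0.133% in its wild type, 12.7 ± 0.31% in the Ezh2b mutant and 6.86 ± 0.197% in its wild type. Lox made up 72.8 ± 0.366% in the Ezh2a mutant, 69.9 ± 0.261% in its wild type, 66.6 ± 0.445% in the Ezh2b mutant and 67.9 ± 1.63% in its wild type. The summed level of the 5 oxidases was 995 ± 14.1 CPM per kb in the Ezh2a mutant, 1039 ± 4.5 in its wild type, 1142 ± 9.29 in the Ezh2b mutant and 1053 ± 3.64 in its wild type. The log2 ratio of Loxl2 to Lox within a library, which does not depend on library scaling, averaged -3.19 ± 0.04 in the Ezh2a mutant, -2.79 ± 0.02 in its wild type, -2.40 ± 0.03 in the Ezh2b mutant and -3.31 ± 0.07 in its wild type (SD, n = 3 each).

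Among the hydroxylases, the ratio of the telopeptide enzyme Plod2 to the helical enzyme Plod1 set the Ezh2b wild type apart. Its log2 value averaged 0.14 ± 0.03 in the Ezh2a mutant, 0.22 ± 0.06 in its wild type, 0.13 ± 0.01 in the Ezh2b mutant and -0.42 ± 0.20 in its wild type. The Ezh2b wild-type libraries gave -0.51, -0.57 and -0.19, and the last of these is replicate 3. Plod2 was thus above Plod1 per length in the other 9 libraries and below it in these 3. That order rests on the merged exon lengths, 6765 bases for Plod1 and 5392 for Plod2. These may differ from the lengths of the transcripts expressed. In CPM, without the length, Plod1 was above Plod2 in every library. Plod3 made up 52.3 ± 0.953% of the hydroxylase level in the Ezh2a mutant, 50.9 ± 0.526% in its wild type, 60.1 ± 0.312% in the Ezh2b mutant and 62.3 ± 1.71% in its wild type. The share of Plod3 was higher in the Ezh2b groups, where the levels of Plod1 and Plod2 were lower, while the group means of Plod3 itself lay within 1.04-fold of each other.

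**Figure D3:**
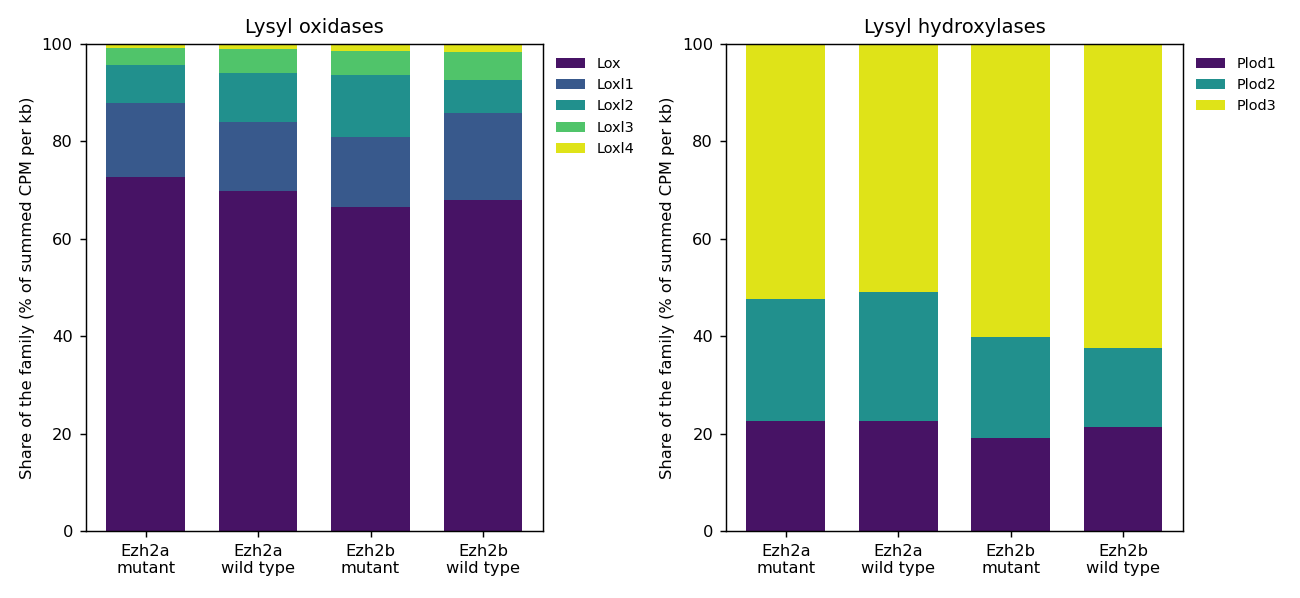
Mean share (%) of each gene in the summed level per kb of exon of its family, for the oxidases (left) and hydroxylases (right) in the 4 groups; the stacked bars add up to 100%. Loxl2 has its largest share in the Ezh2b mutant (12.7%) and its smallest in the Ezh2b wild type (6.86%), and Plod2 has its smallest in the Ezh2b wild type (16.1%).

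Several of the loci hold a gene on the opposite strand, and the counting strand is not given in the sources used here. Reads from the bases shared with such a gene cannot be assigned without it. Gm27177, an antisense transcript (chromosome 14, 69582164 to 69683286, minus strand), shares 301 exon bases with Loxl2, or 5.569% of its exons. Gm27177 had 8.67, 8.76 and 7.96 CPM in the Ezh2b mutant, against 19.6, 19.1 and 18.5 CPM in its wild type. In this mutant, where Loxl2 rose, it fell by 1.17 on the log2 scale (SE 0.08, adjusted p = 4.25e-10). In the Ezh2a mutant, where Loxl2 fell, it had 14.0, 12.8 and 15.2 CPM, against 12.9, 14.3 and 13.7 CPM in its wild type (0.04, SE 0.07, adjusted p = 0.762). Its level in the Ezh2b wild type, 19.1 CPM on average, is small beside the 390.5 CPM of Loxl2.

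**Figure D4:**
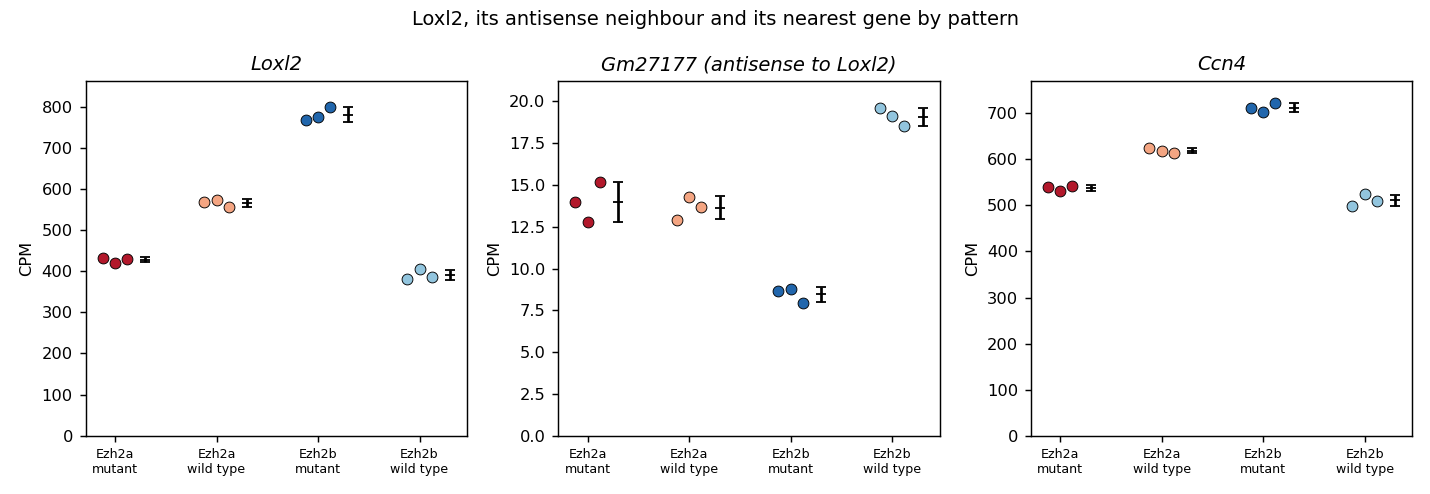
Level (CPM, linear axes from 0 that differ between panels) of Loxl2, of the antisense transcript Gm27177 that overlaps it and of Ccn4, the gene whose pattern over the 12 libraries was most like that of Loxl2. Points are libraries and bars are the mean with its SD over 3 libraries. In the Ezh2b mutant Loxl2 and Ccn4 are at their highest, and Gm27177 at its lowest (7.96 to 8.76 CPM).

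Plod2 shares 346 exon bases (6.417%) with Gm38391, an unclassified transcript on the opposite strand that was not analysed here. Loxl3 shares 535 exon bases (11.623%) with Htra2 and Plod3 shares 529 (11.706%) with Znhit1, protein-coding genes on the opposite strand. Htra2 did not pass in the Ezh2a mutant (adjusted p = 0.646) or the Ezh2b mutant (0.241), nor did Znhit1 (0.797 in Ezh2a and 0.119 in Ezh2b). The nearest tested neighbour of Loxl3 is Dok1, an adaptor protein gene that starts 702 bases away on the other strand. Dok1 had 34.7, 33.0 and 35.0 CPM in the Ezh2a mutant, against 48.3, 47.1 and 45.6 CPM in its wild type, and fell there as Loxl3 did (-0.46, SE 0.05, adjusted p = 7.96e-07). In the Ezh2b mutant it fell as well (-0.13, SE 0.04, adjusted p = 0.0356), where Loxl3 did not pass. Beside Loxl2, R3hcc1 at 1473 bases did not pass in either mutant (adjusted p = 0.919 in Ezh2a and 0.372 in Ezh2b), and Entpd4b at 23548 bases fell in the Ezh2b mutant (-0.41, SE 0.05, adjusted p = 1.9e-06), opposite to Loxl2.

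The substrates of the enzymes are fibrillar collagens, and all 11 of the listed chains were tested. In the Ezh2a mutant 5 rose and 2 fell (median log2 fold change 0.08), and in the Ezh2b mutant 6 rose and 1 fell (median 0.15). The largest changes were in minor or cartilage chains. Col2a1, the cartilage collagen, rose by 6.75 (SE 0.12) in the Ezh2a mutant, where 8 of 9 tested cartilage markers rose, and fell by 1.09 (SE 0.13) in the Ezh2b mutant. Col24a1 rose by 0.32 (SE 0.06) in Ezh2a and by 1.02 (SE 0.06) in Ezh2b. In the Ezh2b wild type over the Ezh2a wild type, Col24a1 was lower (-0.94) and Col2a1 higher (2.48). Of the 11 chains 2 were higher there and 7 lower. In the Ezh2a mutant Loxl2 and Plod2 thus fell while more fibrillar chains rose than fell. The 2 chains that fell there were Col5a1 (-0.23, SE 0.03) and Col5a2 (-0.22, SE 0.03). Among the most abundant chains, Col1a2 rose by 0.08 (SE 0.03) in Ezh2a. Col1a1 (-0.03, adjusted p = 0.54) and Col3a1 (-0.11, adjusted p = 0.0808) did not pass there. In Ezh2b Col1a1 (0.17, SE 0.03), Col1a2 (0.18, SE 0.03) and Col5a1 (0.15, SE 0.03) rose. Col3a1 (0.06, adjusted p = 0.373) and Col5a2 (0.03, adjusted p = 0.491) did not pass in Ezh2b. The 11 listed cartilage markers summed to 0.0186 to 0.0202% of counts in the Ezh2a mutant and 0.00281 to 0.00298% in its wild type, where Matn1 and Cnmd were at 0, and their part in the levels of the 8 genes was not tested.

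Of 16 tested enzymes and chaperones that act on collagen in the endoplasmic reticulum, 1 rose and 4 fell in the Ezh2a mutant (median -0.03), and 3 rose and 3 fell in the Ezh2b mutant (median -0.02). The proline hydroxylase subunit P4ha2 moved as Plod2 did, by -0.25 (SE 0.04) in Ezh2a and 0.24 (SE 0.04) in Ezh2b. Its sister subunit P4ha3 did not: P4ha3 rose in both, by 0.15 (SE 0.04) in Ezh2a and 0.14 (SE 0.04) in Ezh2b. P4ha1 changed by -0.19 (SE 0.03) in Ezh2a and did not pass in Ezh2b (0.06, adjusted p = 0.207). Its Ezh2b effect minus its Ezh2a effect passed (0.25, SE 0.05, adjusted p = 4.9e-04). P3h2, another proline hydroxylase, rose by 0.84 (SE 0.12) in Ezh2b. In the Ezh2b wild type over the Ezh2a wild type, P4ha2 (-0.52) and P3h2 (-0.97) were lower. Of these 16 genes 4 were higher there and 4 lower.

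Lysyl oxidases are secreted and are supported by matrix proteins and copper transporters. Some, Lox among them, are made as precursors that the protease Bmp1 cuts. Of 11 tested genes of this kind, the Ezh2a mutant had 1 that rose and 5 that fell (median -0.10), and 5 rose and none fell in the Ezh2b mutant (median 0.17). Bmp1 changed by -0.25 (SE 0.04) in Ezh2a and 0.37 (SE 0.04) in Ezh2b. Postn, the matrix protein periostin that links Bmp1 to fibronectin, changed by -0.29 (SE 0.04) in Ezh2a and 0.22 (SE 0.04) in Ezh2b. Thbs1, thrombospondin, changed by -0.68 (SE 0.05) in Ezh2a and 0.30 (SE 0.05) in Ezh2b. These 3 genes had the directions of Loxl2 and Plod2 in both mutants. Pcolce2, the 1 that rose in Ezh2a, did not: it changed by 0.51 (SE 0.14) there. In Ezh2b Pcolce2 did not pass (0.22, adjusted p = 0.274). Lox and Loxl1 did not have the directions of Loxl2 and Plod2 in both mutants either. Lox did not pass in Ezh2a (-0.00), and Loxl1 fell in Ezh2b (-0.21). In the Ezh2b wild type over the Ezh2a wild type, Bmp1 (-0.54), Postn (-0.69) and Thbs1 (-0.14) were lower. The Ezh2b effect minus the Ezh2a effect passed for these 3, at 0.62 for Bmp1, 0.51 for Postn and 0.98 for Thbs1. Atp7a, the transporter that loads copper onto secreted enzymes, rose by 0.19 (SE 0.05) in Ezh2b.

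Elastin is the other substrate of the oxidases. Of 11 tested elastic fibre genes, 5 were called higher and 3 lower in the Ezh2a mutant (median 0.02), and none rose and 4 fell in the Ezh2b mutant (median -0.08). Eln, elastin itself, averaged 507 ± 9.43 CPM in the Ezh2a mutant and 242 ± 9.53 CPM in its wild type (1.07, SE 0.07, adjusted p = 2.4e-09), while Loxl1, the oxidase known for elastic fibres, did not pass there. The microfibril genes Mfap5, Ltbp2 and Fbn1 fell in both mutants, Mfap5 by 0.59 in Ezh2a and 0.55 in Ezh2b, Ltbp2 by 0.45 in Ezh2a and 0.26 in Ezh2b, and Fbn1 by 0.31 in Ezh2a and 0.17 in Ezh2b. Loxl1 fell in the Ezh2b mutant and did not pass in the Ezh2a mutant. In the Ezh2b wild type over the Ezh2a wild type, Eln was higher (0.82). Of the 11 elastic fibre genes 5 were higher there and 1 lower.

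Of 20 hypoxia-inducible genes other than the 8, the Ezh2a mutant had 1 that rose and 12 that fell (median -0.19), and 5 rose and 2 fell in the Ezh2b mutant (median 0.01). Pfkfb3, a regulator of glycolysis, moved as Plod2 and Loxl2 did, by -0.28 (SE 0.06) in Ezh2a and 0.49 (SE 0.06) in Ezh2b. Adm, adrenomedullin, moved the other way, by 0.23 (SE 0.06) in Ezh2a and -0.81 (SE 0.06) in Ezh2b. In the Ezh2b wild type over the Ezh2a wild type, Pfkfb3 was lower (-0.80) and Adm higher (0.82). Of these 20 genes 3 were higher there and 8 lower. Lox, named above as a hypoxia target with Loxl2 and Plod2, did not pass in Ezh2a (adjusted p = 0.956) and rose by 0.09 in Ezh2b. Of 15 genes induced by TGF-beta in fibroblasts, the Ezh2a mutant had 1 that rose and 10 that fell (median -0.17), and 7 rose and 1 fell in the Ezh2b mutant (median 0.09). Itga11, a collagen receptor subunit, rose by 0.90 (SE 0.04) in Ezh2b, and Acta2, smooth muscle actin, by 0.44 (SE 0.04). In Ezh2a Itga11 did not pass (0.08, adjusted p = 0.192) and Acta2 changed by -0.15 (SE 0.04). Tgfbi, the 1 that rose in Ezh2a, had the largest change of the list there, at 0.51 (SE 0.05). It rose in Ezh2b too, by 0.26 (SE 0.06). Between the wild types, Ezh2b over Ezh2a, Itga11 (-0.80) and Tgfbi (-1.07) were lower, and Acta2 did not pass (0.08, adjusted p = 0.169). Of these 15 genes 9 were higher there and 3 lower. The median over all tested genes was -0.00 in Ezh2a and -0.01 in Ezh2b, and 19.8% of all tested genes passed in Ezh2a and 26.1% in Ezh2b. All named genes of these lists passed in the comparison given, with adjusted p under 0.05, unless said not to pass.

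**Figure D5:**
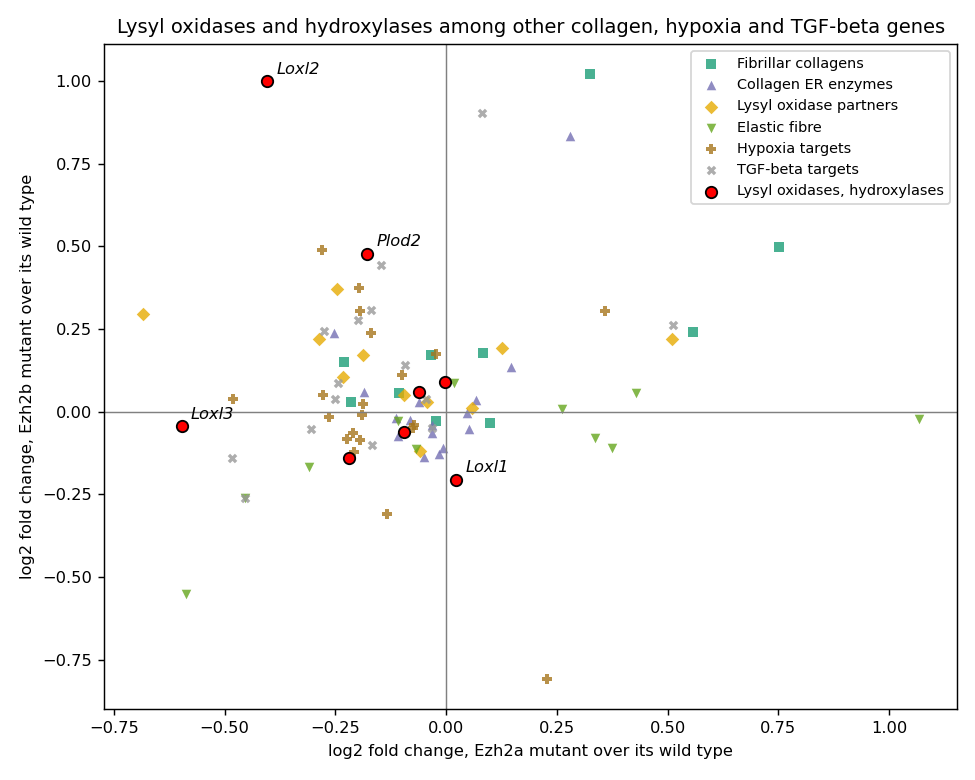
Log2 fold change in the Ezh2a mutant (horizontal) against that in the Ezh2b mutant (vertical), each over its own wild type, for the 8 genes (red circles) and the tested genes of 6 lists; Col2a1 lies outside the axes and is not drawn. Loxl2, at -0.40 in Ezh2a and 1.00 in Ezh2b, stands apart at the upper left, and Loxl3, at -0.60 in Ezh2a and -0.04 in Ezh2b, lies far to the left.

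The genes whose log2 CPM was most like that of a member over the 12 libraries are given with Pearson's r, a description over 4 groups of 3 libraries. Loxl2 was most like Ccn4, a matricellular protein of the Wnt pathway (r = 0.9974), and F2r, the thrombin receptor (0.9845). Ccn4 averaged 538 ± 6.24 CPM in the Ezh2a mutant, 618 ± 6.1 in its wild type, 712 ± 9.8 in the Ezh2b mutant and 511 ± 12.4 in its wild type, the same order of groups as Loxl2. Plod2 was most like C5ar1, a complement receptor of myeloid cells (0.99), and Ptgis, prostacyclin synthase (0.9897). Loxl3 was most like Csf1 (0.9899), the growth factor of macrophages, and Abcc1 (0.9862). Loxl1 was most like Lmna (0.9782), which encodes lamin A, and Ccdc80 (0.9741). For Loxl4 the closest were Mfge8 (0.9933) and Psmc5 (0.9923), and for Plod1 Tacc1 (0.9779) and Myl12b (0.9758). The nearly level genes had lower values: Lox with Nudt4 (0.9396) and Rnf128 (0.9258), and Plod3 with Pgs1 (0.8891) and Itgb5 (0.8826).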

How the data were processed

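RNA of 12 MEF libraries, 4 groups of 3, was measured by poly-A RNA sequencing. The authors deposited raw counts per gene symbol in 1 table. The submitters' processing notes list edgeR 4.2.1, StringTie 2.1.5, HISAT2 2.1.0 and fastp 0.21.0, and the build GRCm38 (mm10). How reads were counted, by which annotation and strand, is not given in the sources used here. Counts of 1 (3357 cells of the table) were rarer than counts of 2 (13267), so counts divided by 2 were tried as well.

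Counts were filtered by filterByExpr, scaled by TMM (factors 0.977 to 1.03) and fitted with edgeR 4.0.16 in R 4.3.3, with 1 mean per group and 8 residual degrees of freedom. Contrasts were tested with the quasi-likelihood test, and p-values were adjusted over 15708 genes. Standard errors are the log2 fold change, without its sign, over the root of its F statistic. Levels per kb use merged exons of GENCODE M21, matched by symbol. Alternatives were DESeq2 1.42.0, RLE factors, library totals, no filter, only the groups compared, a replicate block and each library left out.

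The members and gene lists were chosen with earlier results of these data known. Named genes are the 8 members and Ezh2, up to 4 genes per list and comparison with the largest change past the threshold, and the 2 genes most like each member whose log2 CPM averaged 1 or more, leaving out symbols of predicted genes. Genes overlapping or next to a member, and Col1a1, Col1a2, Col3a1, Col5a1 and Col5a2, were added after their values were seen. Endothelial markers summed to 0.00106 to 0.00215% of counts and epithelial and mesothelial markers to 0.00329 to 0.00873% over the 12 libraries.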

Additional observations from a re-analysis of the deposited data

Results flagged for a closer look

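For 4 of the 8 genes the effect of the Ezh2b mutation differed from that of the Ezh2a mutation by the test of the difference itself (edgeR's quasi-likelihood test, Benjamini-Hochberg over all genes). Of all 15708 genes, 26.5% passed the same test. The difference in log2 fold change, Ezh2b minus Ezh2a, was 1.40 for Loxl2, 0.66 for Plod2, 0.55 for Loxl3 and -0.23 for Loxl1. All 4 passed in each of the 12 fits that leave out 1 library, with ranges of 1.39 to 1.43 for Loxl2, 0.60 to 0.73 for Plod2, 0.49 to 0.63 for Loxl3 and -0.28 to -0.20 for Loxl1.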

How the results depend on the processing

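The counts of the 8 genes past the threshold stayed within 1.5 times the main count under every alternative, at 3 to 5 for the Ezh2a mutant, 3 to 6 for the Ezh2b mutant, 4 to 5 for the difference between the effects and 6 for the wild types. No fold change of a called gene reversed. With library totals in place of TMM the median of all genes moved to 0.04 in Ezh2a and -0.04 in Ezh2b, and calls over all genes split into 2061 higher and 1117 lower in Ezh2a (1509 and 1609 with TMM), 1910 and 2525 in Ezh2b (2200 and 1905) and 1723 and 2787 for the difference between the effects (2305 and 1863). Leaving out 1 library at a time gave 2296 to 2556 genes in Ezh2a, 3405 to 3946 in Ezh2b, 3728 to 4321 for the difference and 5834 to 6474 for the wild types. Replicate numbers did not pair the libraries: correlations of same-numbered libraries were -0.048 to 0.037. The fit with the replicate block called 4, 4, 4 and 6 of the 8 genes in the 4 comparisons, changed no call among them and called 3081, 4065, 4111 and 6615 of all genes. The difference between the effects uses all groups and was not fitted on fewer. Across the threshold moved, under at least 1 alternative, Loxl4, Plod1 and Plod2 in the Ezh2a mutant, Lox, Loxl4 and Plod1 in the Ezh2b mutant, and Lox for the difference between the effects, and the causes were not tested.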
